A study of Homo sapiens with 4 samples.

Results

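The regions of open chromatin in and around 10 genes for mesenchymal transcription factors, TWIST1, TWIST2, TCF4, SNAI1, SNAI2, ZEB1, ZEB2, PRRX1, RUNX1 and RUNX2, were examined in human fibroblasts with and without ΔNp63α. A peak was taken as belonging to a gene when its summit lay in the gene body or within 50 kb of one of the gene's transcription start sites (TSSs) in GENCODE release 44. Over the autosomes and sex chromosomes, this gave 210 of the 101142 CTR peaks and 230 of the 109486 p63 peaks. A region was called open when its −log10 q, the peak caller's false discovery rate on a log scale, reached 10, which left 122 of 56680 CTR regions and 126 of 62343 p63 regions.

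Chromatin accessibility had been measured by ATAC-seq, in which a transposase inserts adapters into accessible DNA, in 4 samples of BJ cells, an established line of human dermal fibroblasts. In the CTR group (2 samples) the cells expressed KLF4, and in the p63 group (2 samples) they expressed the wild-type isoform ΔNp63α followed by KLF4, so KLF4 was shared by both groups. Expression was driven by a doxycycline-responsive TRE3G promoter in polyclonal lines that also carried the rtTA transactivator, and the cells were treated with 1 µg/ml doxycycline for 72 h. Each replicate was a new induction of the same lines, and 1 peak list was deposited for each group. The lists hold no values per replicate, so the groups were not tested against each other and every difference below describes these lists.

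Transcription factors of the TWIST, SNAIL and ZEB families bind E-boxes in DNA and are best known for the epithelial-mesenchymal transition, in which epithelial genes such as that of E-cadherin are silenced and cells become migratory. PRRX1 and the RUNX factors act in connective tissue and skeletal lineages, and the E-protein TCF4 pairs with other basic helix-loop-helix (bHLH) factors. Fibroblasts are mesenchymal cells, and TWIST1, TWIST2, PRRX1 and ZEB1 are typical of them, whereas SNAI2 and RUNX1 are also used in the epidermis. p63 is the master regulator of stratified epithelia, and together with KLF4 it can turn fibroblasts into keratinocyte-like cells.

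The labelled cell type was checked at the canonical TSSs of marker genes, those of the transcript that the annotation marks as representative of each gene. Of 12 fibroblast markers, 8 had an open region in CTR and 7 in p63. Among them were VIM (95 reads at the summit in CTR and 103 in p63), COL1A2 (115 and 93 reads) and PDGFRB (70 and 76 reads), while COL1A1, COL3A1, DCN and PDGFRA had no open region there in either list, and COL6A3 had one in the CTR list alone (46 reads). None of 12 keratinocyte, 4 endothelial or 4 immune markers had an open canonical TSS in either list.

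The sequences of the regions on which the description turns are given first, for genome build hg38. The first set holds 5 of the 7 regions that were open in the p63 list alone and whose best match to the p53/p63 family site had at most 5 mismatches. The other 2 were RUNX1 regions with 5 mismatches (chr21:35776220-35776443 and chr21:35989111-35989559). The site is 20 bases long and consists of a pair of decamers. The C and G of both cores (4 bases) were required and mismatches were counted over the other 16 positions. Capitals mark the best match. It had 1 mismatch in the first sequence, 3 in the second, 5 in the third and 4 in the last pair. The match with 3 mismatches lay in an annotated UTR of a shorter TCF4 transcript and is given without its surroundings.
TCF4, 63.3 kb upstream of the canonical start site, chr18:55651376-55651526, plus strand: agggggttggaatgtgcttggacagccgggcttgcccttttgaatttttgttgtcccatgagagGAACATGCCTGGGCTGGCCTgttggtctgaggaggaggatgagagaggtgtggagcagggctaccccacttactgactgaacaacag
TCF4, match in intron 5, chr18:55422318-55422337, plus strand: CAACATGCTGGGGCTTGGCT
TCF4, intron 5, chr18:55452403-55452553, plus strand: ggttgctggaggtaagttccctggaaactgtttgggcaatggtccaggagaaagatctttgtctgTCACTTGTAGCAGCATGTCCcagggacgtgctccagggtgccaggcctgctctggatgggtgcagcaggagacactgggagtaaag
RUNX1, intron 7, chr21:34813626-34813776, plus strand: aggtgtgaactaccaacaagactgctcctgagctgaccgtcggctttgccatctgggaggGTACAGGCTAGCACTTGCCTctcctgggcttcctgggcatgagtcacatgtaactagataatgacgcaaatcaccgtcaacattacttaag
TWIST1, 90.6 kb downstream of the canonical start site, chr7:19026969-19027119, plus strand: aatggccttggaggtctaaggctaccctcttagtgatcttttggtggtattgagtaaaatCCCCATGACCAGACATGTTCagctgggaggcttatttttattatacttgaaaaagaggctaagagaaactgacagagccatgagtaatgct

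The second set holds 4 regions that were open in both lists and had, among such regions of their gene, the largest ratio of summit reads between the lists. Capitals mark matches to the motifs searched, TGAGTCA or TGACTCA for AP-1, TGTGGT for RUNX factors, CACCTG for the E-box, ACATTCC or GCATTCC for TEAD, and GGGCGTGGC or GGGTGTGGC for KLF factors, each on both strands. The first pair held none of them. The RUNX2 and PRRX1 regions held an AP-1 sequence, which the PRRX1 region combined with a RUNX sequence read on the minus strand.
RUNX1, intron 8, chr21:34795759-34795909, plus strand: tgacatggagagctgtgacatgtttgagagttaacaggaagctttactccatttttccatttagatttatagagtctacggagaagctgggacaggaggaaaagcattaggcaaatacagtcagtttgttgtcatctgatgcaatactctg
TWIST2, 26.9 kb upstream, chr2:238821089-238821239, plus strand: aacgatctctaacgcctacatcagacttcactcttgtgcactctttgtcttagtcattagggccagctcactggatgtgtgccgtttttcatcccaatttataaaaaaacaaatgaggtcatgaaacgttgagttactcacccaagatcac
RUNX2, intron 5, chr6:45454428-45454578, plus strand: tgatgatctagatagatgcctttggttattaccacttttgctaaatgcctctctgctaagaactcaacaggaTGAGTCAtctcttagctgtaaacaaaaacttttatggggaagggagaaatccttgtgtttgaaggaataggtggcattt
PRRX1, 29.6 kb upstream, chr1:170634455-170634605, plus strand: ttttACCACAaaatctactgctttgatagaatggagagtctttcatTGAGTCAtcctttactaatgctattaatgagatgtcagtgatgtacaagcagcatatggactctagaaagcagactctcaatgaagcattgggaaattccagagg

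Most regions of the 10 genes were open in both lists. In such bulk samples, a region accessible in fewer cells and one less accessible in each cell cannot be told apart. In the CTR list, 104 of 122 regions overlapped an open region of the p63 list by at least 1 bp and 18 did not. These CTR-only regions made up 14.8% (95% Wilson interval 9.54 to 22.1) of the members' regions, beside 16.5% of all CTR regions. Of the 126 p63 regions, 102 were shared and 24 were p63-only, which is 19% (13.1 to 26.8) beside 23.9% of all p63 regions. Both shares lay near those of the whole lists, and both whole-list shares fell inside the members' intervals. The intervals cover counting error only.

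The list-only regions were then divided by whether the other list held any peak there, however weak. Only 2 CTR regions had no peak in the p63 list at any threshold, 1.64% (0.451 to 5.78) of the members' CTR regions beside 3.29% of all. In the opposite direction, 10 p63 regions had no peak in the CTR list, 7.94% (4.37 to 14) beside 12% of all. The other 16 CTR-only and 14 p63-only regions overlapped a weaker peak. For these, the −log10 q in the other list had a median of 7.08 in the p63 list and 7.7 in the CTR list and reached 9.54 and 9.96. It was 5 or more for 11 of the 16 and 11 of the 14 regions.

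Among the peaks of the 10 genes below the threshold, 33 of 88 in the CTR list (37.5%, 28.1 to 47.9) and 44 of 104 in the p63 list (42.3%, 33.3 to 51.9) had no counterpart in the other list, however weak. Over the whole lists these shares were 44.4% and 47.2%, inside both intervals.

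The classes were spread over the genes as follows. SNAI1 (7 open regions in each list) and SNAI2 (4 in each list) had shared regions alone. CTR-only regions occurred in 6 of the 10 genes, and 41.8% of 20033 protein-coding genes had at least 1 under the same window. The highest numbers were 10 of 53 at RUNX1 and 4 of 17 at TCF4, while PRRX1, ZEB1, ZEB2 and RUNX2 had 1 each. p63-only regions occurred in 8 genes (58.2% of coding genes), with 10 of 51 at RUNX1, 7 of 20 at TCF4, 2 of 4 at TWIST1 and 1 each at TWIST2, ZEB1, ZEB2, PRRX1 and RUNX2. Regions without any peak in the other list were found at 2 genes in the CTR list (11.4% of coding genes) and at 5 genes in the p63 list (37.1% of coding genes). RUNX1 and TCF4 were also the longest of the 10 genes, with annotated bodies of 1217 kb and 442.6 kb.

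**Figure D1:**
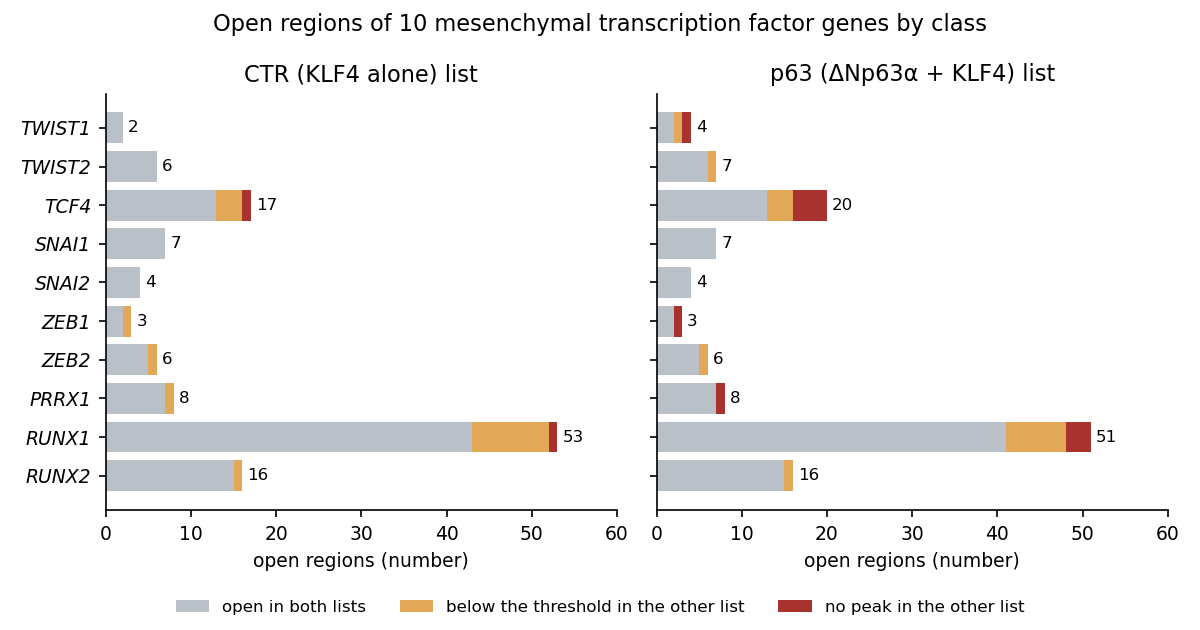
Number of open regions (horizontal axis) of each gene (vertical axis) in the CTR list (left) and the p63 list (right), stacked by class. Grey marks regions open in both lists, orange regions whose partner was below the threshold in the other list and red regions without a peak in the other list, and the totals at the bar ends run from 2 (TWIST1, CTR) to 53 (RUNX1, CTR).

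For regions open in both lists, the number of reads stacked at the summit was recovered from the peak caller's values and divided by the background coverage of its list (1.18 reads in CTR and 1.13 in p63). Over the 102 reciprocal pairs of the 10 genes, the median log2 p63/CTR ratio was 0.06, as it was over all 47172 pairs, and the quartiles of the members' pairs were −0.21 and 0.26. Reads were at least 1.5-fold higher in the p63 list in 5 pairs (4.9%, beside 8.94% of all pairs) and at least 1.5-fold lower in 5 pairs (4.9%, beside 3.32% of all pairs). The 95% interval of the ratio, which covers counting error only, excluded 1 in 4 pairs, all of them higher in the p63 list. Of these, 3 belonged to RUNX1 and the other to TWIST2. Among 102 intervals at 95%, some exclude 1 by counting error alone, and the share over all pairs was not computed. Of all pairs, 59.6% were higher in the p63 list.

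**Figure D2:**
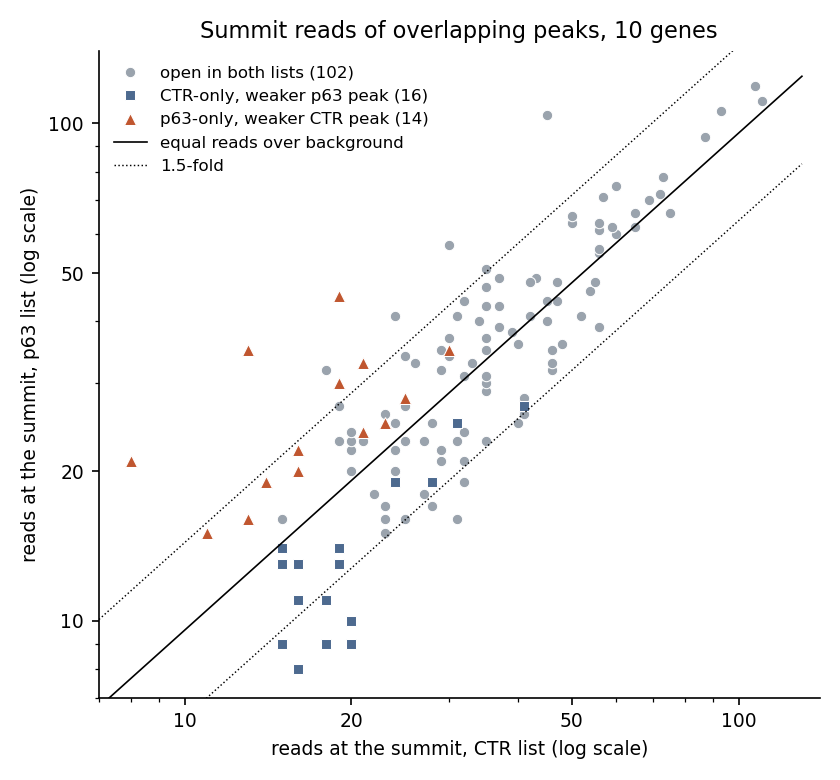
Reads at the summit in the CTR list (horizontal, log scale) and in the p63 list (vertical, log scale) for 102 pairs open in both lists (grey circles), 16 CTR-only regions with a weaker p63 peak (blue squares) and 14 p63-only regions with a weaker CTR peak (red triangles). The solid line marks equal reads over background and the dotted lines a 1.5-fold difference, and the point farthest above the lines among the grey circles is the RUNX1 region with 45 and 104 reads.

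The bHLH factors are described first. TWIST1 (ENSG00000122691.13, chr7:19020991-19117636, minus strand), needed for cranial mesenchyme, had a broad open region over its promoter with 73 reads at the summit in CTR and 78 in p63, a p63/CTR ratio of 1.12 (0.801 to 1.56). This region had the highest −log10 q of the gene in both lists (39.9 and 46.4). Another shared region 93.2 kb downstream had 22 and 18 reads. Both p63-only regions of TWIST1 were weak. One, 10.2 kb downstream (chr7:19107070-19108179), had 28 reads against 25 in a CTR peak below the threshold, and the other (chr7:19026982-19027159) had 18 reads without a CTR peak and carried the match with 4 mismatches shown above.

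TWIST2 (ENSG00000233608.5, chr2:238848032-238910534, plus strand), the dermal relative of TWIST1, was open at its promoter with 69 reads in CTR and 70 in p63. Its strongest region lay in intron 1, 16.3 kb into the gene (chr2:238863996-238864872), with 110 and 111 reads and an AP-1 sequence. The promoter and this intronic region were close to equal in the lists, with ratios of 1.06 (0.749 to 1.5) and 1.05 (0.802 to 1.38). The region 26.9 kb upstream of the TSS (chr2:238820978-238821667) instead had 30 reads in CTR and 57 in p63, a ratio of 1.98 (1.25 to 3.2), and its percentile rank by −log10 q was 45.4 among CTR regions and 82.2 among p63 regions. The p63-only region of TWIST2, in intron 1 (chr2:238881877-238882653), had 25 reads against 23, with a −log10 q of 11.7 against 9.96.

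TCF4 (ENSG00000196628.20, chr18:55222185-55664787, minus strand), a bHLH E-protein that can form dimers with TWIST proteins, had the regions of this set with the best matches to the p63 site. The strongest p63-only region of all 10 genes (chr18:55651123-55651848) lay 63.3 kb upstream of the canonical TSS, within the body of longer transcripts. It had 50 reads, a 16.8-fold enrichment over local background (with 1 read added to each) and a −log10 q of 48. No CTR peak overlapped it at any threshold, and it held the match with 1 mismatch. The next (chr18:55452117-55452689) lay in intron 5, 32 bp from the start of the antisense transcript TCF4-AS1, with 30 reads, a 13.4-fold enrichment, no CTR peak and a best match of 5 mismatches, above the limit of 3 used for calling a site. The third (chr18:55422022-55422529), also in intron 5 and 9 bp from an alternative TCF4 start site, held the match with 3 mismatches and differed little between the lists, with 20 reads against 16 and a ratio of 1.31 (0.643 to 2.69). Hence the site with 1 mismatch stood in a region present in 1 list alone, and the site with 3 mismatches in a region that crossed the threshold by a few reads.

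The remaining p63-only regions of TCF4 were weaker. Those without a CTR peak had 21 reads (chr18:55593936-55594188, with an AP-1 sequence) and 15 reads (chr18:55196466-55196635). The canonical TSS had 24 reads and a −log10 q of 10.5 in the p63 list against 21 reads and 7.93 in the CTR list. A further alternative TSS in intron 8 had 22 reads against 16. In the opposite direction, the CTR-only region without a p63 peak (chr18:55185496-55185660) lay downstream of the gene, had 18 reads and held an AP-1 sequence, and the start sites 1.66 kb upstream of the canonical one had 31 reads in the CTR list against 25, just below the threshold, in the p63 list. The strongest region of TCF4 in the CTR list (chr18:55321464-55322718), over the start sites of short transcripts in intron 8, had 65 reads in CTR and 66 in p63. Among the 13 shared pairs of TCF4, 9 were lower in the p63 list (40.4% of all pairs were), with a median ratio of 0.895 and a range from 0.686 to 1.26. None of these 13 intervals excluded 1.

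**Figure D3:**
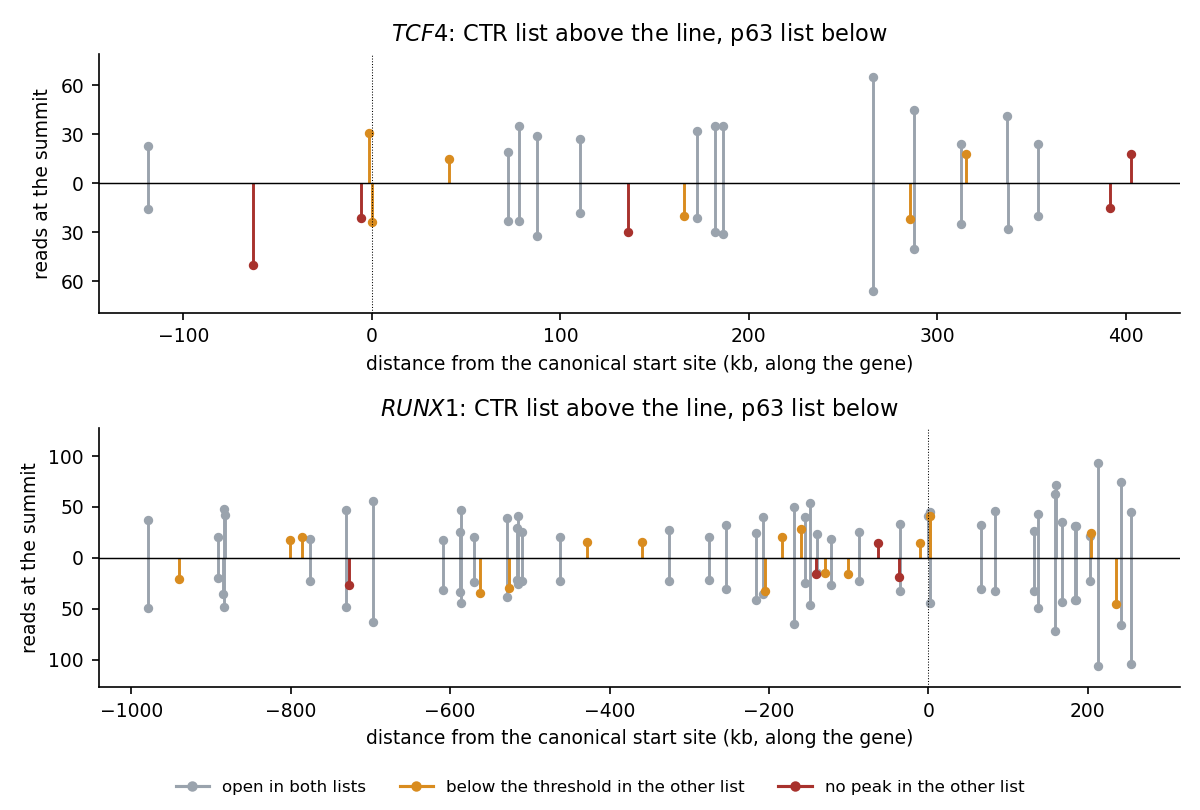
Reads at the summit (vertical) of each open region of TCF4 (top) and RUNX1 (bottom) against its distance from the canonical start site in kb along the gene (horizontal), with the CTR list above the line and the p63 list below it. Grey regions were open in both lists, orange regions had a partner below the threshold and red regions none, and the longest red line is the TCF4 region with 50 reads 63.3 kb upstream.

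The SNAIL factors, zinc finger repressors of E-cadherin, showed no list-only region. The promoter of SNAI1 (ENSG00000124216.4, chr20:49982980-49988886, plus strand) had 31 reads in CTR and 23 in p63, a ratio of 0.775 (0.432 to 1.37). The neighbouring regions 14 kb upstream (29 and 21 reads) and 6.8 kb downstream (29 and 22 reads) were lower in the p63 list by a similar factor, and none of the 3 intervals excluded 1. In the SNAI1 window, 3 other regions were nearest to RNF114, and the one at the RNF114 promoter was the region with the highest −log10 q of the window in the p63 list, with 51 reads against 35 and a ratio of 1.52 (0.971 to 2.41). In the CTR list the highest −log10 q belonged to a region 47.2 kb downstream of the SNAI1 TSS (chr20:50029934-50030463), with 59 reads against 62.

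SNAI2 (ENSG00000019549.13, chromosome 8, minus strand), known as SLUG, had the most reads at a canonical TSS among the 10 genes, 87 in CTR and 94 in p63 (ratio 1.13, 0.834 to 1.53). Its other shared regions lay 4.38 kb upstream (35 reads in both lists), 18.4 kb downstream (35 and 47 reads) and 29.8 kb downstream (25 and 16 reads). All intervals included 1. All 3 of the regions away from the promoter held an AP-1 sequence.

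The ZEB factors, zinc finger homeobox repressors of epithelial genes, had fewer open regions for their length than the median coding gene. The same held for TWIST1, with 1.36 per 100 kb of its window in CTR and 2.73 in p63. ZEB1 (ENSG00000148516.23, chr10:31318495-31529814, plus strand) had 3 in each list, which is 1.15 per 100 kb of its window. The median coding gene had 3.2 in CTR and 3.61 in p63, but the median window was 112 kb, against 261.3 kb for ZEB1. The ZEB1 promoter had 52 reads in CTR and 41 in p63 (ratio 0.824, 0.533 to 1.26) and was the gene's strongest region in both. Intron 1 held 1 weak region of each list, a CTR-only region with 19 reads against 13 (chr10:31426196-31426730) and a p63-only region with 16 reads and no CTR peak (chr10:31353661-31353922).

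ZEB2 (ENSG00000169554.23, chr2:144364364-144521057, minus strand) had 2.67 open regions per 100 kb in both lists. Its canonical TSS had 30 reads in CTR with a −log10 q of 7.48, below the threshold, and 35 reads in p63 with 12.1, so this start site counted as p63-only (ratio 1.22, 0.727 to 2.06). The region 2.48 kb into the gene, over other start sites, was open in both lists with 56 and 61 reads. Of the 5 shared pairs 4 were lower in the p63 list, beside 40.4% of all pairs. Among the 4 was the region 33.4 kb upstream (chr2:144553206-144553791) with 46 and 32 reads, yet none of the intervals excluded 1. The region with the highest −log10 q in both lists (50.6 and 48.3) lay 162 kb from the canonical TSS, past the end of the gene and nearest to GTDC1. It had 65 and 62 reads and was also among the 4, with a ratio of 0.996 (0.692 to 1.43). The CTR-only region in intron 4 (chr2:144414423-144414822) had 19 reads against 14.

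PRRX1 (ENSG00000116132.12, chr1:170662728-170739421, plus strand), a paired-type homeobox factor of limb and dermal mesenchyme, had 8 open regions in each list. The region at its canonical TSS had 32 reads in CTR and 44 in p63 (ratio 1.44, 0.89 to 2.34), and its percentile rank was 13.8 in CTR and 45.8 in p63. Upstream, the region shown above with AP-1 and RUNX sequences (chr1:170634163-170635349) had 32 and 19 reads, a ratio of 0.62 (0.332 to 1.13). The promoter thus had more reads in the p63 list and the upstream region more in the CTR list, and both intervals included 1. The highest −log10 q in the CTR list (48.3) belonged to a region 40.7 kb upstream with 55 reads against 48, and in the p63 list (52.2) to a region 44.1 kb into intron 1 with 71 reads against 57, both with an AP-1 sequence. The list-only regions, both in intron 1, had 16 reads against 11 (CTR-only, chr1:170700864-170701357) and 18 reads without a CTR peak (p63-only, chr1:170678303-170678495).

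RUNX1 (ENSG00000159216.19, chr21:34787801-36004667, minus strand), a RUNT-domain factor of blood and mesenchymal cells, contributed 53 of the 122 CTR regions and 51 of the 126 p63 regions. Owing to the length of its annotated body, 22 of its CTR regions and 24 of its p63 regions lay nearer to the TSS of CLIC6 or SETD4. At its distal canonical promoter, the CTR peak had 41 reads with its summit 42 bp from the TSS. The p63 peak over this TSS had 44 reads, but its summit lay 1.55 kb into the gene, where another CTR peak had 45 reads. The p63 reads at the TSS itself are therefore not known. The proximal promoter was covered by 1 region in p63 (72 reads) and by 2 in CTR (72 and 63 reads). Of these 2, the one with 63 reads had its summit nearer to that of p63. The strongest region in the CTR list, an AP-1-containing region in intron 6 (chr21:34836115-34836930), had 93 reads and 106 in the p63 list, where it was also the strongest (ratio 1.19, 0.893 to 1.59). Reads were thus similar for this region and for the overlapping promoter peaks, although the summits over the distal TSS differed in position.

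The largest read ratios among the members were found in RUNX1. The shared region in intron 8 (chr21:34795381-34796203), near the 3′ end of the gene, had 45 reads in CTR and 104 in p63, a ratio of 2.41 (1.69 to 3.51). In the neighbouring intron 7, the p63-only region that held a match with 4 mismatches and an AP-1 sequence (chr21:34813472-34813990) had 45 reads against 19 below the threshold (ratio 2.47, 1.42 to 4.48). The p63-only regions at chr21:35611729-35612149, with 35 reads against 13 (ratio 2.81, 1.45 to 5.79), and at chr21:35989111-35989559, with 21 against 8 (2.74, 1.17 to 7.16), lay far upstream in the body of the longest transcript. These 3 were the only intervals above 1 among the 14 p63-only regions with a weaker CTR peak. None of the 16 intervals of CTR-only regions with a weaker p63 peak excluded 1, and their highest ratio of CTR to p63 reads was 2.13 (0.926 to 5.31), also in RUNX1 (chr21:35232474-35232968). Since list-only regions were selected by the threshold, their ratios are larger in the named direction by selection.

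Of the p63-only regions of RUNX1, 3 had no CTR peak, with 27 reads (chr21:35776220-35776443), 19 reads (chr21:35086474-35086630) and 16 reads (chr21:35190187-35190539). The CTR region without a p63 peak had 15 reads (chr21:35113064-35113324), the lowest number that any open region had. The other shared regions with at least 1.5-fold more reads in the p63 list had 24 and 41 reads (chr21:35265159-35265987) and 18 and 32 reads (chr21:35658203-35658651), and those with fewer had 40 and 25 (chr21:35203285-35203950) and 41 and 26 (chr21:35563893-35564394). In all, 28 of 41 RUNX1 pairs were higher in the p63 list, with a median ratio of 1.07, beside 59.6% of all pairs and a median of 1.04.

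RUNX2 (ENSG00000124813.23, chr6:45328157-45664349, plus strand), the regulator of osteoblast differentiation, had no peak at its canonical, distal TSS in either list. A CTR peak 1.375 kb upstream of this TSS had 7 reads, was below the threshold and had no p63 counterpart. The proximal promoter of RUNX2 was open with 42 reads in CTR and 41 in p63 (ratio 1.02, 0.647 to 1.61). The strongest region in both lists lay 328 kb from the canonical TSS, near the end of the gene (chr6:45655707-45656409), held AP-1 and TEAD sequences and had 107 and 119 reads. Among the regions open in both lists, the one with the lowest p63/CTR ratio was the AP-1-containing region in intron 5 shown above (chr6:45454241-45454790), with 31 and 16 reads (ratio 0.539, 0.275 to 1.02). A second, with 28 and 17 reads (chr6:45555947-45556598), held none of the motifs. RUNX2 overlaps SUPT3H, whose canonical TSS was the nearest coding one for all 16 regions of each list, so the regions cannot be assigned to 1 of these genes by position.

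At the level of start sites, the TSSs of the protein-coding transcripts of the 10 genes formed 42 groups when those within 500 bp were joined. An open region lay at 17 groups in CTR and at 21 in p63, of which 16 were the same groups. The 5 open in the p63 list alone were 3 of TCF4, 1 of ZEB1 and 1 of ZEB2, and the 1 open in the CTR list alone was of TCF4. Every one of these 6 groups had a peak below the threshold in the other list, so no such start site was open in 1 list and without a peak in the other. The ZEB1 group counted as open in the p63 list through the wide promoter peak with 41 reads, which was a shared region. In the CTR list the same stretch held 2 peaks, the promoter peak with 52 reads and one below the threshold with 27 reads.

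**Figure D4:**
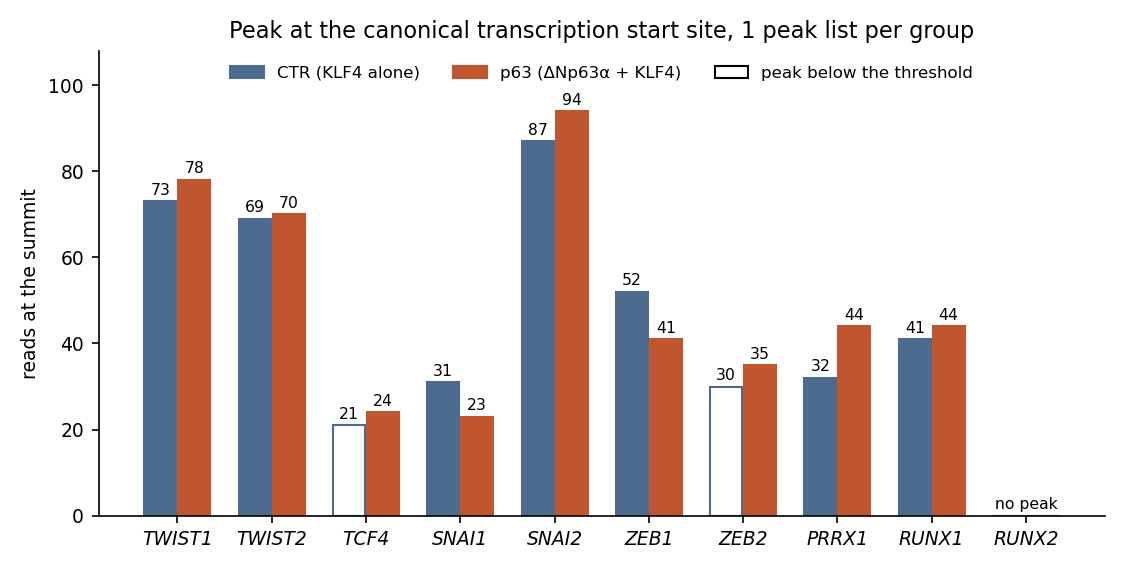
Reads at the summit (vertical) of the peak at the canonical start site of each gene (horizontal) in the CTR list (blue) and the p63 list (red), with open bars for peaks below the threshold and 1 value per list. SNAI2 has the highest bars (87 and 94), TCF4 and ZEB2 have an open bar in the CTR list, and RUNX2 has no peak in either list. The RUNX1 bar of the p63 list belongs to a peak whose summit lies 1.55 kb into the gene.

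The position of the regions and the sequence around their summits were set beside those of the whole lists. Summits lay within 3 kb of a TSS in 26.2% (19.2 to 34.7) of the members' CTR regions and 26.2% (19.3 to 34.5) of their p63 regions, beside 40.4% and 39.4% of all regions. Without RUNX1 the shares were 34.8% (24.6 to 46.6) and 37.3% (27.3 to 48.6), and both intervals included the whole-list share. The sequences around the summits had a median GC content of 46.3% in both lists, beside 49.8% and 50.2%. AP-1 sequences, the binding sites of FOS and JUN dimers, stood within 100 bp of the summit in 39.3% (31.1 to 48.2) of the CTR regions beside 26.9% of all, and in 34.1% (26.4 to 42.8) of the p63 regions beside 25.4% of all. Among distal regions alone, the share was 45.6% (35.7 to 55.8) beside 34.2% in the CTR list and 38.7% (29.4 to 48.9) beside 31.6% in the p63 list. Without RUNX1, AP-1 sequences were found in 40.6% (29.8 to 52.4) of the CTR regions and 30.7% (21.4 to 41.8) of the p63 regions, and the latter interval included the whole-list share. Among distal regions without RUNX1, the AP-1 share was 51.1% (37 to 65) in the CTR list and 38.3% (25.8 to 52.6) in the p63 list. RUNX sequences were found in 13.1% (8.24 to 20.2) of the CTR regions beside 16.4% of all, and in 11.1% (6.73 to 17.8) of the p63 regions beside 16.2%. In distal regions the shares were 8.89% (4.57 to 16.6) beside 19.6% and 10.8% (5.95 to 18.7) beside 19.1%, whereas in promoters they were 25% (13.3 to 42.1) beside 11.6% in the CTR list and 12.1% (4.82 to 27.3) beside 11.9% in the p63 list. The 100 bp were counted from the summit in each list, so a shared region can match in 1 list alone when its summits differ. The shared ZEB1 promoter region at chr10:31315580-31315742, for example, held a RUNX sequence in the CTR list and none in the p63 list. Without RUNX1, the distal share in the CTR list was 6.67% (2.29 to 17.9), an interval below 19.6%. In the p63 list it was 10.6% (4.63 to 22.6), an interval that included 19.1%. Regions of 1 gene are not independent of each other, and no test was made.

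Among list-only regions, AP-1 sequences were present in 7 of 18 CTR-only regions (38.9%, 20.3 to 61.4) and in 3 of 24 p63-only regions (12.5%, 4.34 to 31), beside 26.1% and 22% of all list-only regions. The intervals of these shares overlap. A p63 site with at most 3 mismatches was found in 0 of 122 CTR regions, beside 0.932% of all CTR regions. This count allows a share of up to 2.46% by 3 counts of the total and 3.05% by the upper Wilson bound. In the p63 list, 2 of 126 regions held such a site (1.59%, 0.436 to 5.6), beside 3.78% of all p63 regions. Both were p63-only regions of TCF4. They made up 8.33% (2.32 to 25.8) of the 24 p63-only regions, beside 11.4% of all p63-only regions. Of the 10 p63 regions without a CTR peak, 1 held a site, beside 18.8% of all such regions. E-boxes of the type CACCTG occurred in 9.02% (5.11 to 15.4) of the members' CTR regions beside 8.54% of all, TEAD sequences in 15.6% (10.2 to 23) beside 11.3%, and KLF sequences in 2 regions (1.64%) beside 1.62% of all. In the p63 list, E-boxes occurred in 7.94% (4.37 to 14) beside 10%, and TEAD sequences in 14.3% (9.23 to 21.5) beside 10.6%. KLF sequences occurred there in 1 region (0.794%) beside 1.64%.

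**Figure D5:**
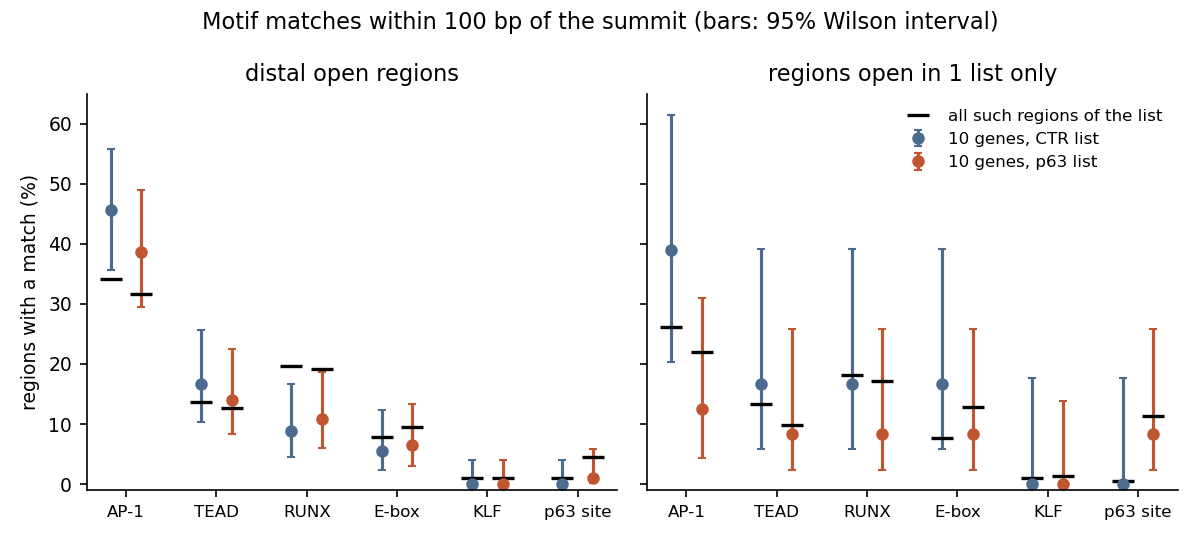
Share of regions with a motif match within 100 bp of the summit (vertical, percent) for 6 motifs (horizontal) in distal regions (left) and list-only regions (right), with points for the 10 genes, bars for 95% Wilson intervals and black dashes for all such regions of the list. AP-1 matches stand above the dash in distal regions of both lists (45.6% and 38.7%), RUNX matches below it (8.89% and 10.8%).

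Further genes of the same circuits were read with the same window. The 9 partners and inhibitors of the members (E-proteins TCF3 and TCF12, the ID proteins, CBFB and the CTBP corepressors) had 17 p63-only regions of 76, 22.4% (14.5 to 32.9). TCF12 had 6 of 15 (4 without a CTR peak), ID3 had 4 of 11 (3 without) and CTBP2 had 3 of 13 (2 without). TCF3 had 2 of 6, ID1 had 1 of 10 and CBFB had 1 of 8, all with a weaker CTR peak. ID2, ID4 and CTBP1 had none. Of the 76 regions, 9 had no CTR peak, 11.8% beside 12% of all p63 regions. The 12 other mesenchymal transcription factors had 10 of 55, 18.2% (10.2 to 30.3), and 14 CTR-only regions of 58, 24.1% (15 to 36.5), with 4 of 7 at EBF2 and 3 of 5 at FOXF1. The 14 epithelial factors that oppose the mesenchymal state had 32 p63-only regions of 97, 33% (24.4 to 42.8), and 8 CTR-only regions of 73, 11% (5.66 to 20.2). The 16.5% of CTR-only regions in the whole list lay inside the intervals of both gene lists. A p63 site lay in 7 of the 32 p63-only regions of the epithelial factors, beside 11.4% of all p63-only regions. Such p63-only regions occurred in 12 of the 14 epithelial genes (KLF5 and GATA3 had none), beside 58.2% of coding genes. The p63-only share of the epithelial factors lay above the 23.9% of the whole list, and that of the 10 members lay below it. The intervals of the epithelial factors and the members overlapped, and the difference was not tested. Among 8 target genes of the transition, 9 of 54 p63 regions were p63-only (16.7%, 9.02 to 28.7). CDH1, the gene for E-cadherin, had 4 of them among its 10 regions, of which 3 had no CTR peak. CDH2, VIM, FN1, EPCAM and DSP had 1 each, and CLDN1 and OCLN had none. Over all 8 target genes, 4 of the 54 regions had no CTR peak, 7.41% beside 12% of all p63 regions.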

How the data were processed

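ATAC-seq of 4 BJ fibroblast samples (2 CTR, 2 p63) was analysed from 1 MACS2 peak list per group. Per the submitters' processing notes and the study's methods, reads were mapped to hg38 with Bowtie2 2.3.4.3 and peaks were called from both replicates; the version and options of MACS2, the handling of duplicates and the shift of reads for the transposase were not given in the sources used here. The lists deposited by the authors hold for each peak a fold enrichment, a −log10 p-value and a −log10 q-value, an integer score and a summit position. The fold enrichment was read as the ratio between pileup at the summit and local background, with 1 added to each. None of these was scaled between the lists, and the depth of the samples is unknown.

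Peaks on chromosomes 1 to 22, X and Y were read with pandas 2.3.3. Reads at the summit were the whole number that solved the deposited fold enrichment and −log10 p together, which succeeded within 0.001 for 99.98% of CTR and 99.99% of p63 peaks and for all peaks of the 10 genes. The recovery and the overlap of peaks were tested on simulated data. Peaks whose −log10 q reached 10 were called open and matched by an overlap of 1 bp. Shares have 95% Wilson intervals and read ratios exact binomial intervals (scipy 1.17.1), both for counting error only. Gene bodies and TSSs came from GENCODE release 44, and sequences within 100 bp of a summit from hg38 (pysam 0.24.0). The share of all regions with a match is given beside each share of the members.

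For each gene the regions named were the one at the canonical TSS, the strongest of each list, those absent from the other list and those with a p63 site of at most 3 mismatches. The regions with the largest read ratios, and the other list-only regions described, were chosen after their values were seen. The members and lists were chosen with earlier results of these data known. The alternatives were other thresholds, overlaps, windows, annotations, mismatch limits and rankings.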

Additional observations from a re-analysis of the deposited data

How the results depend on the processing

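No paired analysis was possible because each group has 1 peak list without values per replicate, and leaving out a replicate could not be run for the same reason. Of 54 alternative values, 38 stayed within 1.5 times the count or within the interval of the value reported and 16 moved. Some of the 38 could not move, since a rule for the overlap changes the classes and not the number of regions. The number of members' regions (122 CTR, 126 p63) was 210 and 230 with all deposited peaks, 67 and 63 with a −log10 q of 20 or more, 78 and 78 with the canonical transcripts alone, and 69 and 75 without RUNX1, an alternative added after the data were seen. The CTR-only share (14.8%) was 25.4% at a −log10 q of 20 or more, 23% with a reciprocal overlap of 50% and 1.64% when no overlap at any threshold was allowed, under which the p63-only share (19%) was 7.94%. The p63-only share exceeded the CTR-only share in the values reported, but not at a −log10 q of 20 or more (22.2% against 25.4%) nor with the 56680 top-ranked peaks of each list (14.3% against 19.7%), so the order of the shares depends on the threshold. Promoter shares of 26.2% were 18.9% (CTR) and 19% (p63) within 1 kb, and 15.6% and 15.1% with canonical TSSs alone. The median difference in percentile rank of the shared pairs was −0.511 (95% interval −4.49 to 2), −1.61 with all peaks and −0.493 by fold enrichment. The cause of these changes was not tested. The depth of the samples is unknown, and the weakest open summits had 15 reads.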

Other observations

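Values just beside the threshold show how near some classes lay to it. In the CTR list, the weakest open regions of the 10 genes were at TWIST2 (−log10 q of 10.1 and 15 reads), PRRX1 (10.2 and 29 reads) and TCF4 (10.3 and 15 reads). Regions of RUNX1 (chr21:35059730-35060004 and chr21:35113064-35113324) and RUNX2 (chr6:45387184-45387528) had the same values as the TCF4 region. The strongest regions that missed the threshold were at TWIST2 (9.96 and 23 reads), ZEB2 (9.93 and 15 reads) and SNAI2 (9.59 and 17 reads). In the p63 list, the weakest open regions were at SNAI2 (10.2 and 16 reads) and TCF4 (10.2 and 21 reads, 10.5 and 24 reads), and TCF4 (9.54 and 14 reads), ZEB2 (9.54 and 14 reads) and TCF4 (9.53 and 25 reads) missed it.

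At close relatives of the members, PRRX2 had 3 p63-only regions of 12, none with a CTR peak, RUNX3 had 3 of 9, all with a weaker CTR peak, and SNAI3 had none of 3. Together these were 6 of 24 regions, 25% (12 to 44.9), 3 of them (12.5%) without a CTR peak, beside 23.9% and 12% of all p63 regions.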
